A study of Mus musculus with 6 samples.

Results

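The genes described here are the protein-coding mouse genes named as MAP kinases (Mapk), MAP kinase kinases (Map2k), MAP3 kinases (Map3k) and MAP4 kinases (Map4k), chosen by their symbols and leaving out Map3k7 and Map3k14. There were 39 of them among 48897 rows of the deposited gene table: 13 MAP kinases, 7 MAP2 kinases, 14 MAP3 kinases and 5 MAP4 kinases. RNA-seq was done on embryonic fibroblasts of C57BL/6 mice, at passage 5 to 7, in 3 groups of 2 libraries. The TCZ group received tumour necrosis factor alpha (TNF), the translation inhibitor cycloheximide and the pan-caspase inhibitor z-VAD-fmk. The TC group received TNF and cycloheximide without z-VAD-fmk. The control group received the saline vehicle PBS. The sources used here state neither dose nor exposure time. They do not say that the 2 libraries of a group are separate cultures, and the p-values thus cover the spread between libraries, possibly a technical one. Because no group received TNF or cycloheximide alone, their effects cannot be told apart. In TCZ against TC the stated treatments differ only by z-VAD-fmk, though equal doses and times are not stated. TCZ against control and TC against control use the same control libraries.

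A MAP kinase cascade is a chain of protein kinases in which a MAP3 kinase phosphorylates a MAP2 kinase, which in turn phosphorylates a MAP kinase, and MAP4 kinases can act above the MAP3 kinases. The end kinases fall into the ERK, JNK, p38 and atypical groups, and TNF receptors are known to engage JNK and p38 through adaptor proteins and MAP3 kinases. Combined with cycloheximide, TNF is a standard way to start caspase-dependent cell death, and with caspases blocked by z-VAD-fmk cells that hold the needed kinases can die by necroptosis. The cascade works by phosphorylation, which RNA levels do not measure, so the values below are levels of kinase transcripts and not kinase activity.

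The libraries held 24922627 to 52909926 counts, with control replicate 2 and TCZ replicate 2 the shallowest. These 2 libraries also differed from the rest in a small-RNA gene, Rnu1a1, with 1 to 3 counts against 165 to 274 in the other 4. Another such gene, Rn7s1, had 5789 and 4 counts in TCZ, 5704 and 6106 counts in TC, and 4916 and 1338 counts in control. In that gene TCZ replicate 2 stood apart from control replicate 2 as well. The fibroblast markers were present in all libraries, with 12 of 12 tested and summed levels of 7010 to 7666 RPKM in TCZ, 6734 to 6830 RPKM in TC and 7022 to 7605 RPKM in control. The single markers were less even: 7 of 12 fell and 3 rose in TC against control, and Pdgfra had -2.67 and Prrx1 -1.79 on the log2 scale in TCZ against control, while Pdgfrb had -1.75 in TC against control. Markers of endothelial cells (5 of 6 tested, mostly Kdr) summed to 11.3 to 11.5 RPKM in TCZ, 25.8 to 27.0 RPKM in TC and 2.35 to 2.47 RPKM in control, and neural markers (4 of 7 tested, mostly Tubb3) to 10.5 to 11.5 RPKM in TCZ, 4.11 to 5.30 RPKM in TC and 18.6 to 21.8 RPKM in control; their part in the results was not tested. Single markers of both lists went against the sums. Pecam1 had 528 and 260 counts in TCZ, 9 and 5 counts in TC, and 1 and 4 counts in control, and Tek and Cdh5 also rose in TCZ against TC (2.32 and 1.30 on the log2 scale). Elavl3 had 172 and 100 counts in TCZ, 96 and 102 counts in TC, and 1 and 0 counts in control, and Syt1 had 27 and 15 counts in TCZ, 53 and 31 counts in TC, and 2 and 1 counts in control. In bulk RNA, fewer cells of a type and less RNA per cell cannot be told apart. The kinase genes together took 0.302% and 0.301% of all counts in TCZ, 0.357% and 0.365% in TC, and 0.231% and 0.235% in control. Map4k4 weighed heavily in these shares, with 49731 and 22570 of 159642 and 75121 kinase counts in TCZ. It had 74496 and 79667 of 177053 and 185663 in TC, and 18465 and 10787 of 107580 and 63119 in control. The shares thus say little about the kinase genes one by one.

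Of the 39 genes, 37 had enough counts to test; Mapk10 and Mapk15 had 12 and 13 counts over all 6 libraries. Levels are RPKM, reads per kilobase of gene length scaled to sequencing depth, after scaling by trimmed mean of M-values (TMM), and a gene passed at an adjusted p under 0.05 in edgeR's quasi-likelihood test over all 18563 tested genes. In TCZ against TC, 11 rose and 18 fell, which is 78.4% of the 37, against 56.1% of all tested genes called (28.2% higher and 27.9% lower). In TCZ against control, 13 rose and 17 fell, or 81.1%, against 60.1% of all tested genes (31.5% higher and 28.6% lower). In TC against control, 15 rose and 14 fell, or 78.4%, against 60.7% of all tested genes (31.5% higher and 29.1% lower). The share passing was above that of all genes in each comparison, and no test was made of that difference. Of the 37 genes, 31 averaged 100 counts or more, and changes are more easily missed at lower counts. The share passing among all genes of such depth was not computed. Among larger changes, of at least 1 on the log2 scale, the kinase genes stood nearer to the background. In TCZ against TC 3 rose and 7 fell that far (8.11% and 18.9%), against 11.6% and 11.7% of all tested genes. In TCZ against control 6 rose and 7 fell that far (16.2% and 18.9%), against 18.3% and 13.8%. In TC against control 7 rose and 4 fell that far (18.9% and 10.8%), against 17.6% and 11.7%. The median log2 fold change of the 37 was -0.33 in TCZ against TC, -0.26 in TCZ against control and 0.16 in TC against control, where the medians of all genes were 0.02, 0.05 and 0.02.

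**Figure D1:**
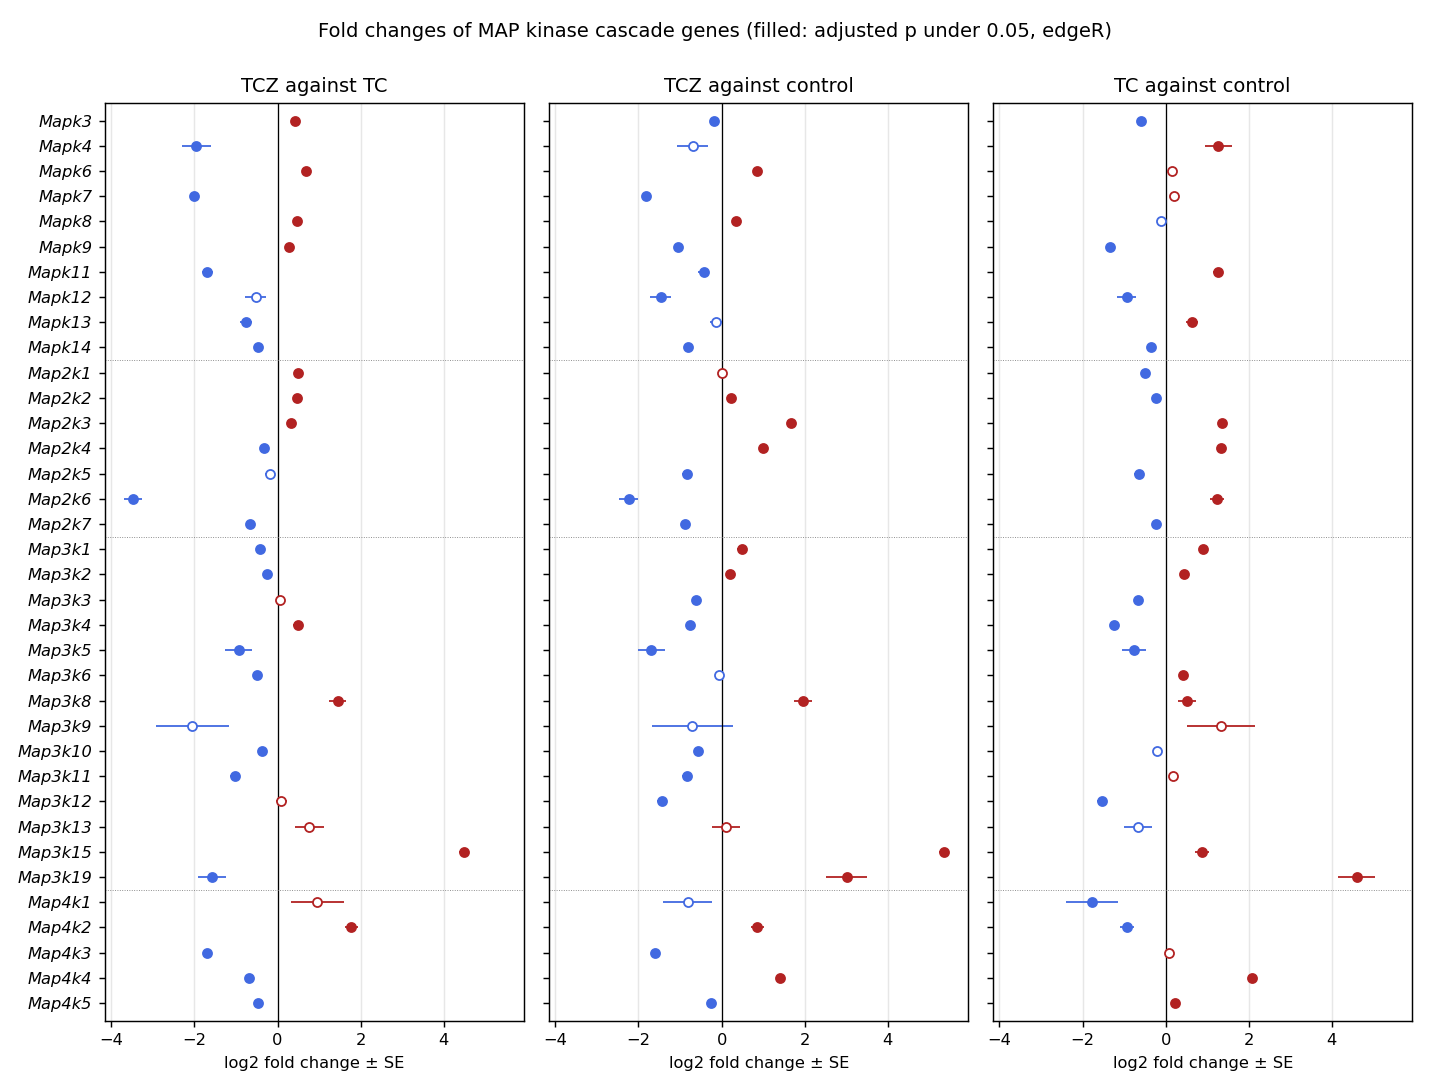
Log2 fold change (horizontal axis, with bars of 1 SE) of 36 tested genes in TCZ against TC, TCZ against control and TC against control, grouped by tier; filled points passed at an adjusted p under 0.05. Map3k15 lies farthest to the right in both TCZ panels, at 4.48 and 5.35, and Map3k19 in the TC panel, at 4.60.

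The genes spanned a wide range of levels. Over all libraries 8 averaged 30 RPKM or more (among them Mapk3, Mapk6, Map2k1, Map2k2, Map2k3, Map2k4 and Map4k4), 5 lay between 10 and 30 RPKM, 16 between 1 and 10 RPKM and 10 below 1 RPKM. Map4k4 was the highest in TC, with a mean of 259 RPKM, and in control, with 60.9 RPKM, and in TCZ the 2 highest were Map2k3 at 164 RPKM and Map4k4 at 161 RPKM. Within TCZ these 2 did not separate beyond their library spread, since Map2k3 had 172 and 156 RPKM and Map4k4 169 and 154 RPKM.

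Promoter windows from RefSeq, on build GRCm38.p6 and reaching from 250 bases before to 50 after a start site, were at hand for 30 of the 39 genes (41 windows). Mapk3, Mapk4, Mapk15, Map3k2, Map3k8, Map3k15, Map3k19 and Map4k4 had none among those searched. Each window was searched on both strands for an NF-kB consensus, the AP-1 motif TGANTCA, the cyclic-AMP response element TGACGTCA, a serum response factor CArG box, an EGR motif and TATAAA. Of the 41 windows 2 held the NF-kB consensus, 3 held AP-1, 1 held the cyclic-AMP element and 3 held TATAAA, and neither the CArG box nor the EGR motif was found. Over all 32851 promoter windows the shares were 4.51% for NF-kB, 7.81% for AP-1, 1.79% for the cyclic-AMP element, 1.63% for the CArG box, 0.612% for EGR and 13.6% for TATAAA. A match is a string of letters and not evidence of binding. The windows printed are those of Map2k3, Map2k6 and Map4k2. Map2k3 shares its start region with a long noncoding RNA. Map2k6 and Map4k2 changed in opposite directions in TCZ and TC against control. Mapk11, Map2k2 and Map4k5 also did so, and their windows held none of the motifs searched. The other windows of Map2k6 held no AP-1 match. Whether a motif goes with such changes was not tested.
Map2k3, chr11:60931804-60932103, plus strand, no motif: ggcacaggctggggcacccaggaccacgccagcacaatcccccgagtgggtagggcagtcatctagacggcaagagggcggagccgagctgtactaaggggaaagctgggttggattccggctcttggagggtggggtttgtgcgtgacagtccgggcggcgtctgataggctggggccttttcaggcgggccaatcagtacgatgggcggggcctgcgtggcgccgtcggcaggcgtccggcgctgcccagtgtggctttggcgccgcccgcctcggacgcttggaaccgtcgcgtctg
Map2k6, the first of its windows, chr11:110398852-110399151, plus strand, AP-1 match in capitals: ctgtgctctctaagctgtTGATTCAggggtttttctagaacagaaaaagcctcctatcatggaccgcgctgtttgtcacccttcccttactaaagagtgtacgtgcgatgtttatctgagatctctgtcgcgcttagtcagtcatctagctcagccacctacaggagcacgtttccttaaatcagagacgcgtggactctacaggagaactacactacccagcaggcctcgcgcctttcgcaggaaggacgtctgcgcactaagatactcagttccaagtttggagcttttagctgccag
Map4k2, chr19:6340910-6341209, plus strand, NF-kB match in capitals: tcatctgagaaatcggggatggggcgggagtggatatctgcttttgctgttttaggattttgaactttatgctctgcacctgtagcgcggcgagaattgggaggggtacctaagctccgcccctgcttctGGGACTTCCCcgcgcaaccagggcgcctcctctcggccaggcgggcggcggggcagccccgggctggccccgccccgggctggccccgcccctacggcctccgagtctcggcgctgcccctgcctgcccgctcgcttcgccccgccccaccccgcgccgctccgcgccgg

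At the top of the cascade, the MAP4 kinase Map4k4 (HGK, a kinase known to act upstream of JNK) rose in both treated groups and Map4k3 fell in TCZ. Map4k4, on mm10 chromosome 1 from 39900912 to 40026310 (plus strand), had 169 and 154 RPKM in TCZ, 253 and 264 RPKM in TC, and 62.7 and 59.0 RPKM in control. Every treated library lay above both control libraries, and TC lay above TCZ. The log2 fold change was -0.68 ± 0.07 in TCZ against TC (adjusted p = 5.85e-08), 1.41 ± 0.07 in TCZ against control (adjusted p = 2.5e-13) and 2.09 ± 0.08 in TC against control (adjusted p = 4.32e-16), the last a 4.25-fold difference. Of the summed MAP4 kinase level, Map4k4 made up 83.9% and 81.8% in TCZ, 82.0% and 82.8% in TC and 55.3% and 54.6% in control.

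Map4k3 (GLK, a kinase tied to amino acid sensing) had 5.84 and 6.51 RPKM in TCZ, 19.9 and 19.7 RPKM in TC, and 18.6 and 18.8 RPKM in control. Both TCZ libraries lay below the other 4. Its log2 fold change was -1.69 ± 0.08 against TC (adjusted p = 9.05e-14) and -1.61 ± 0.08 against control (adjusted p = 7.04e-14), and the value of 0.08 ± 0.07 in TC against control did not pass (adjusted p = 0.33). Map4k2 (a partner of the TNF receptor adaptor TRAF2) had 2.01 and 2.39 RPKM in TCZ, 0.697 and 0.577 RPKM in TC, and 1.16 and 1.27 RPKM in control. The 3 groups did not overlap, with TCZ the highest and TC the lowest. It rose in TCZ by 1.78 ± 0.16 against TC (adjusted p = 5.94e-09) and by 0.85 ± 0.16 against control (adjusted p = 7e-05), and in TC its change against control was -0.92 ± 0.17 (adjusted p = 5.5e-05). The NF-kB match printed above lies 120 bases before its start site.

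The other MAP4 kinases changed less or rested on few counts. Map4k5 had -0.47 ± 0.07 in TCZ against TC (adjusted p = 7.46e-06), -0.26 ± 0.07 in TCZ against control (adjusted p = 0.00394) and 0.22 ± 0.07 in TC against control (adjusted p = 0.0107); the last call was lost when control replicate 2, TC replicate 1 or TC replicate 2 was left out (adjusted p = 0.108, 0.12 and 0.0758). Map4k1 (HPK1, a kinase mainly of blood cells) had 27 and 8 counts in TCZ, 14 and 9 counts in TC, and 31 and 30 counts in control. The TC change against control was -1.77 ± 0.62 (adjusted p = 0.0163), lost without control replicate 2 or TC replicate 2 (adjusted p = 0.117 and 0.0873). Leukocyte markers (8 of 10 tested) summed to 16.05 to 16.09 RPKM in TCZ, 7.49 to 9.66 in TC and 9.57 to 10.4 in control. Lyz2 made up most of each sum. In TCZ against TC, Lyz2 and Itgam rose and the other 6 tested did not pass. In TCZ against control 3 rose and Cd14 fell (-0.94 on the log2 scale). The part of these markers in the Map4k1 values was not tested.

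Among the MAP3 kinases, 3 rose and 7 fell in TCZ against TC, 5 rose and 6 fell in TCZ against control, and 6 rose and 4 fell in TC against control, of 14 tested (21.4% and 50%, 35.7% and 42.9%, and 42.9% and 28.6%). Over all tested genes the shares higher and lower were 28.2% and 27.9%, 31.5% and 28.6%, and 31.5% and 29.1% in these comparisons, and no test was made of the difference. The widest change was that of Map3k15 (ASK3, a relative of the stress-activated kinase ASK1). Map3k15, on mm10 chromosome X from 159988433 to 160123351 (plus strand), had 13.2 and 14.3 RPKM in TCZ, 0.616 and 0.611 RPKM in TC, and 0.299 and 0.389 RPKM in control. The raw counts were 2784 and 1502 counts in TCZ, 130 and 132 counts in TC, and 63 and 51 counts in control. Both TCZ libraries lay far above the other 4, and the TC libraries lay above the control libraries. The log2 fold change was 4.48 ± 0.11 in TCZ against TC (adjusted p = 6.54e-18), 5.35 ± 0.13 in TCZ against control (adjusted p = 3.51e-19) and 0.87 ± 0.16 in TC against control (adjusted p = 9.1e-05). On the linear scale TCZ stood 22.4-fold above TC and 40.9-fold above control. In shares, Map3k15 was 26.3% and 27.9% of the summed MAP3 kinase level in TCZ, 1.45% and 1.41% in TC and 0.632% and 0.867% in control.

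The end of Map3k15 overlaps the opposite-strand gene Pdha1 over 1133 bases, and the sources used here do not say whether counting used strand, so reads in the overlap cannot be assigned with certainty. Pdha1 had 89.2 and 84.8 RPKM in TCZ, 75.1 and 79.5 RPKM in TC, and 76.9 and 71.7 RPKM in control, a log2 fold change of 0.17 ± 0.07 in TCZ against TC (adjusted p = 0.0492) and 0.23 ± 0.07 in TCZ against control (adjusted p = 0.00949). The part of Pdha1 reads in the Map3k15 values was not tested.

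Map3k8 (TPL2, the MAP3 kinase that feeds the ERK branch downstream of TNF and toll-like receptors) rose in TCZ. It had 2.53 and 2.18 RPKM in TCZ, 0.950 and 0.784 RPKM in TC, and 0.656 and 0.539 RPKM in control. Both TCZ libraries lay above the other 4. The log2 fold change was 1.45 ± 0.20 in TCZ against TC (adjusted p = 2.67e-06) and 1.97 ± 0.21 in TCZ against control (adjusted p = 5.13e-08). In TC against control it was 0.52 ± 0.22 (adjusted p = 0.0467), a call lost without control replicate 1 or 2, TC replicate 1 or TCZ replicate 1 (adjusted p 0.0514 to 0.242) and with DESeq2 (adjusted p = 0.0882). The leukocyte marker sums given above, mostly Lyz2, were also highest in TCZ, though 6 of the 8 tested markers did not pass in TCZ against TC. Their part in the Map3k8 values was not tested.

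The apoptosis signal-regulating kinase Map3k5 (ASK1) fell in TCZ. Map3k5 had 0.0894 and 0.123 RPKM in TCZ, 0.157 and 0.238 RPKM in TC, and 0.329 and 0.340 RPKM in control. Its raw counts were 41 and 28 counts in TCZ, 72 and 112 counts in TC, and 151 and 97 counts in control. The TCZ libraries lay lowest and the control libraries highest. Its log2 fold change was -0.94 ± 0.33 in TCZ against TC (adjusted p = 0.0182), -1.69 ± 0.32 in TCZ against control (adjusted p = 0.000101) and -0.76 ± 0.29 in TC against control (adjusted p = 0.029). The TCZ against TC call was lost without TC replicate 2 or TCZ replicate 1 (adjusted p = 0.197 and 0.141), and the TC against control call without control replicate 1, control replicate 2 or TC replicate 1 (adjusted p = 0.0986, 0.0929 and 0.239). Its relative Map3k6 (ASK2) fell in TCZ against TC (-0.48 ± 0.09) and rose in TC against control (0.43 ± 0.08), and -0.06 ± 0.09 in TCZ against control did not pass (adjusted p = 0.598).

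Map3k19 (YSK4) was nearly absent from control. Its raw counts were 45 and 35 counts in TCZ, 203 and 135 counts in TC, and 7 and 4 counts in control, and its levels were 0.128 and 0.200 RPKM in TCZ, 0.578 and 0.375 RPKM in TC, and 0.0199 and 0.0183 RPKM in control. The TC libraries lay highest and the TCZ libraries between TC and control. The log2 fold change was -1.58 ± 0.34 in TCZ against TC (adjusted p = 0.000424), 3.02 ± 0.49 in TCZ against control (adjusted p = 1.59e-05) and 4.60 ± 0.45 in TC against control (adjusted p = 8.27e-09). The 2 control libraries hold 11 counts together, so the sizes against control are imprecise.

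Map3k12 (DLK, known from axon injury signalling) and Map3k4 (MEKK4, an activator of p38 and JNK) fell in both treated groups. Map3k12 had 1.03 and 0.937 RPKM in TCZ, 0.917 and 0.936 RPKM in TC, and 2.78 and 2.57 RPKM in control. Control lay above all treated libraries, and both TCZ libraries lay slightly above the TC libraries. The log2 fold change was -1.44 ± 0.12 in TCZ against control (adjusted p = 1.06e-09) and -1.53 ± 0.12 in TC against control (adjusted p = 2.14e-10), and 0.10 ± 0.13 in TCZ against TC did not pass (adjusted p = 0.546). Map3k12 shares 2413 bases with the opposite-strand gene Pcbp2, which had up to 17676 counts against up to 870 for Map3k12.

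Map3k4 had 1.75 and 1.92 RPKM in TCZ, 1.27 and 1.34 RPKM in TC, and 3.29 and 2.85 RPKM in control. The 3 groups did not overlap, with TC lowest. Its log2 fold change was 0.48 ± 0.10 in TCZ against TC (adjusted p = 0.000272), -0.75 ± 0.10 in TCZ against control (adjusted p = 5.58e-07) and -1.24 ± 0.10 in TC against control (adjusted p = 2.01e-10). Map3k11 (MLK3, a mixed-lineage kinase) had 2.23 and 2.25 RPKM in TCZ, 4.34 and 4.82 RPKM in TC, and 4.04 and 3.9984 RPKM in control. Both TCZ libraries lay below the other 4. Its log2 fold change was -1.03 ± 0.11 in TCZ against TC (adjusted p = 3.4e-08) and -0.84 ± 0.11 in TCZ against control (adjusted p = 6.26e-07), and 0.19 ± 0.10 in TC against control did not pass (adjusted p = 0.108). It shares 169 bases with the opposite-strand gene Pcnx3, whose log2 fold change was -0.92 in TCZ against TC, -1.46 in TCZ against control and -0.54 in TC against control, all passing.

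The remaining MAP3 kinases moved by less than 1 on the log2 scale or did not pass. Map3k1 (MEKK1) fell in TCZ against TC (-0.42 ± 0.10) and rose in TCZ against control (0.48 ± 0.10) and in TC against control (0.90 ± 0.10). Map3k3 (MEKK3) had -0.61 ± 0.07 in TCZ against control and -0.66 ± 0.07 in TC against control. Map3k2 (MEKK2) rose in TC against control (0.45 ± 0.07). Its -0.25 ± 0.07 in TCZ against TC lost its call without TC replicate 1 or TCZ replicate 1 (adjusted p = 0.0846 and 0.101), and its 0.20 ± 0.08 in TCZ against control without any one of 4 libraries (adjusted p 0.0759 to 0.246). Map3k10 (MLK2) fell in TCZ against TC (-0.37 ± 0.09) and in TCZ against control (-0.57 ± 0.09). Map3k9 and Map3k13 averaged under 0.1 RPKM and passed in no comparison, though in TCZ against TC each passed in 3 of the 14 alternatives. The stalled-ribosome sensor named Map3k20 elsewhere is listed in the table as Zak and so is not among the 39. Zak had 8.25 and 8.55 RPKM in TCZ, 9.76 and 9.68 RPKM in TC, and 11.7 and 11.2 RPKM in control. Its log2 fold change was -0.21 in TCZ against TC (adjusted p = 0.0149), -0.45 in TCZ against control (adjusted p = 1.02e-05) and -0.24 in TC against control (adjusted p = 0.00529).

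In the MAP2 kinase tier, all 7 genes were tested, and Map2k3, Map2k4 and Map2k6 were the ones that passed with a log2 fold change of 1 or more in size. Map2k3 (MKK3, an activator of p38) rose in both treated groups. Map2k3, on mm10 chromosome 11 from 60932057 to 60952803 (plus strand), had 172 and 156 RPKM in TCZ, 131 and 133 RPKM in TC, and 53.7 and 49.6 RPKM in control. All treated libraries lay above control, with TCZ above TC. On the log2 scale the difference was 0.31 ± 0.07 in TCZ against TC (adjusted p = 0.000991), 1.66 ± 0.08 in TCZ against control (adjusted p = 2.26e-14) and 1.35 ± 0.08 in TC against control (adjusted p = 8.22e-13). Map2k3os, a long noncoding RNA on the other strand whose start lies 190 bases from that of Map2k3, inside the window printed above, had 20.7 and 20.6 RPKM in TCZ, 14.5 and 14.9 RPKM in TC, and 2.80 and 3.80 RPKM in control. The noncoding RNA had log2 fold changes of 0.50 ± 0.10 in TCZ against TC, 2.68 ± 0.12 in TCZ against control and 2.18 ± 0.12 in TC against control, all passing.

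Map2k6 (MKK6), another p38 activator, moved in opposite directions in TCZ and TC against control. It had 0.152 and 0.141 RPKM in TCZ, 1.63 and 1.67 RPKM in TC, and 0.619 and 0.793 RPKM in control. Its raw counts were 41 and 19 counts in TCZ, 441 and 462 counts in TC, and 167 and 133 counts in control. The 3 groups did not overlap, with TC highest and TCZ lowest. Fitted log2 fold changes were -3.48 ± 0.22 in TCZ against TC (adjusted p = 1.31e-11), -2.24 ± 0.23 in TCZ against control (adjusted p = 2.45e-08) and 1.24 ± 0.18 in TC against control (adjusted p = 2.28e-06). Per length, Map2k6 was a small part of the pair, at 0.0884% and 0.0908% of the Map2k3 and Map2k6 sum in TCZ, 1.23% and 1.24% in TC and 1.14% and 1.57% in control.

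Map2k4 (MKK4, an activator of JNK and p38) had 35.8 and 35.3 RPKM in TCZ, 45.2 and 44.3 RPKM in TC, and 18.3 and 17.2 RPKM in control. All treated libraries lay above control, with TC above TCZ. Its log2 fold change was -0.33 ± 0.07 in TCZ against TC (adjusted p = 0.000346), 1.0021 ± 0.07 in TCZ against control (adjusted p = 5.17e-11) and 1.34 ± 0.07 in TC against control (adjusted p = 3.91e-13). Map2k7 (MKK7), the JNK-specific activator, fell in TCZ, with -0.66 ± 0.08 against TC and -0.88 ± 0.08 against control on the log2 scale, and its TC against control value of -0.22 ± 0.08 lost its call without control replicate 1, TC replicate 1 or TC replicate 2 (adjusted p = 0.217, 0.0665 and 0.16). As a share of their sum, Map2k4 was 83.9% and 83.6% in TCZ, 80.4% and 80.6% in TC and 58.0% and 58.8% in control.

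The ERK activators moved by less than 1 on the log2 scale. Map2k1 (MEK1) rose in TCZ against TC (0.50 ± 0.07) and fell in TC against control (-0.49 ± 0.07), and its 0.01 ± 0.07 in TCZ against control did not pass (adjusted p = 0.903); with scaling by library totals alone that value was -0.19 and passed (adjusted p = 0.00563). Map2k2 (MEK2) rose in TCZ against TC by 0.47 ± 0.09. Its other calls, 0.23 ± 0.09 in TCZ against control and -0.24 ± 0.09 in TC against control, were each lost when single libraries were left out: TCZ against control without control replicate 2 or TCZ replicate 1 (adjusted p = 0.368 and 0.451), and TC against control without control replicate 1 or TC replicate 1 (adjusted p = 0.343 and 0.43). Map2k5 (MEK5), the activator of ERK5, fell in TCZ against control (-0.84 ± 0.11) and in TC against control (-0.65 ± 0.11), and -0.18 ± 0.11 in TCZ against TC did not pass (adjusted p = 0.176).

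**Figure D2:**
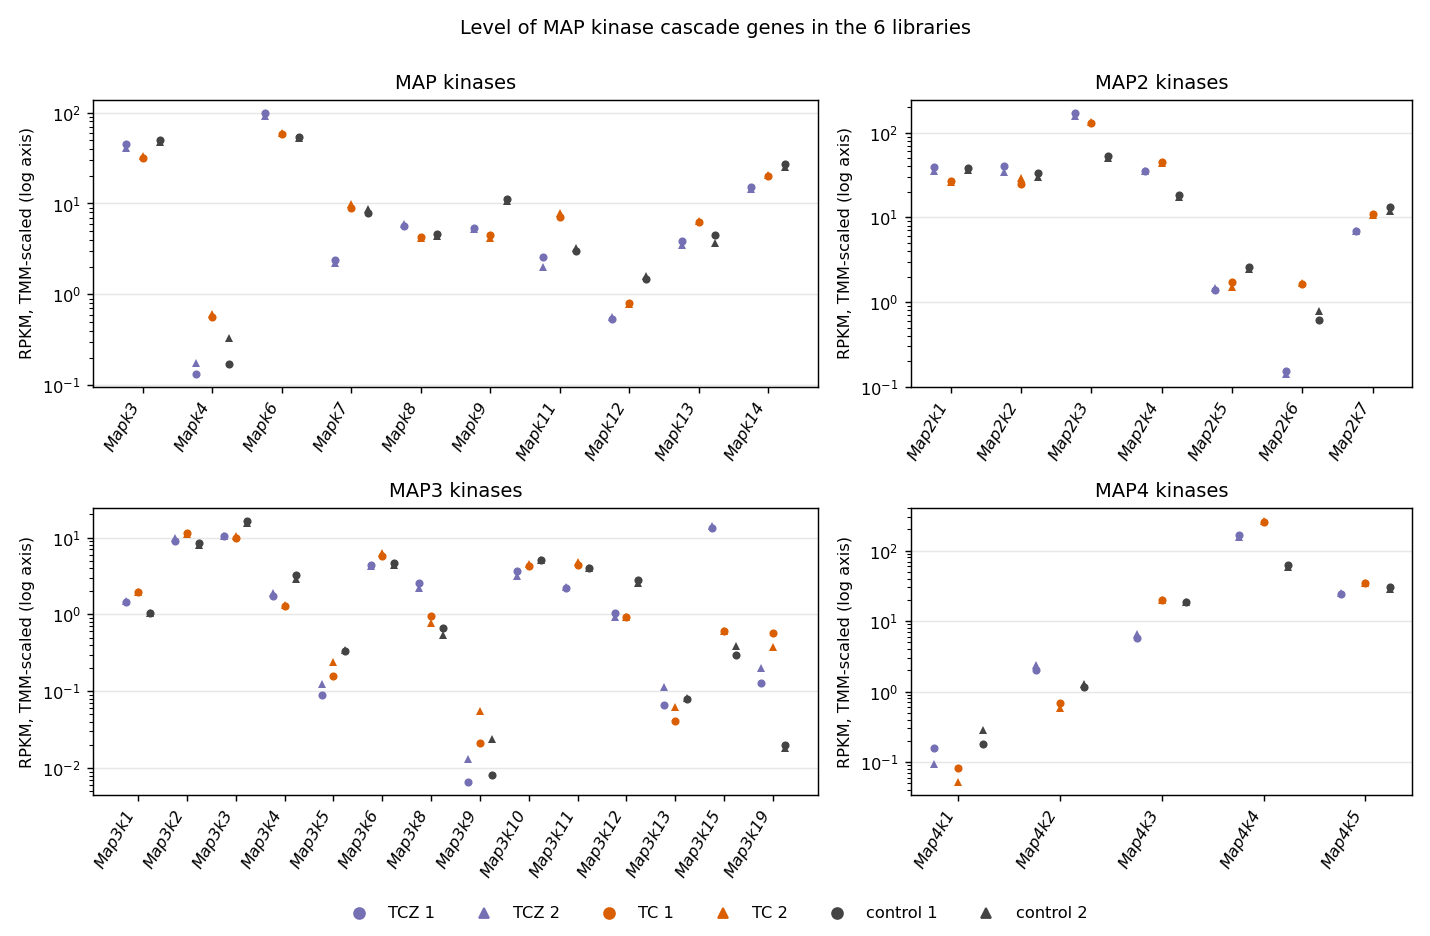
TMM-scaled RPKM (vertical log axes) of 36 tested genes in each of the 6 libraries, by tier, with TCZ, TC and control from left to right within a gene. Map4k4 and Map2k3 lie at 130.6 RPKM or more in every treated library, and Map3k15 lies above 1 RPKM only in TCZ.

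Among the end kinases of the JNK branch, Mapk9 (JNK2) fell in both treated groups while Mapk8 (JNK1) rose in TCZ. Mapk9 had 5.32 and 5.25 RPKM in TCZ, 4.55 and 4.16 RPKM in TC, and 11.3 and 10.8 RPKM in control. All treated libraries lay below control. In edgeR the log2 fold change was -1.06 ± 0.08 in TCZ against control (adjusted p = 1.67e-10) and -1.34 ± 0.08 in TC against control (adjusted p = 2.67e-12). In TCZ against TC it was 0.28 ± 0.08 (adjusted p = 0.00652), a call lost without TC replicate 2 (adjusted p = 0.157) and with no filter on low counts (adjusted p = 0.0952). Mapk8 had 5.70 and 5.89 RPKM in TCZ, 4.23 and 4.16 RPKM in TC, and 4.67 and 4.36 RPKM in control. The TCZ libraries lay above the other 4, with TC lowest. Log2 fold changes were 0.46 ± 0.08 in TCZ against TC (adjusted p = 5.46e-05) and 0.36 ± 0.08 in TCZ against control (adjusted p = 0.000817), and -0.11 ± 0.08 in TC against control did not pass (adjusted p = 0.264). With scaling by library totals alone, the TCZ against control value did not pass (adjusted p = 0.0845) and the TC against control value did (adjusted p = 0.00907).

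Mapk8 thus made up 51.7% and 52.8% of the summed JNK level in TCZ, 48.1% and 50.02% in TC and 29.3% and 28.8% in control, and the groups did not overlap. The summed JNK level itself was 11.03 and 11.2 RPKM in TCZ, 8.79 and 8.32 RPKM in TC, and 15.9 and 15.1 RPKM in control. Shares of this kind are given as descriptions, since an exact permutation test of 2 libraries against 2 cannot give a two-sided p below 0.333. Mapk10 (JNK3, mainly of neurons) had 0 to 4 counts in a library.

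**Figure D3:**
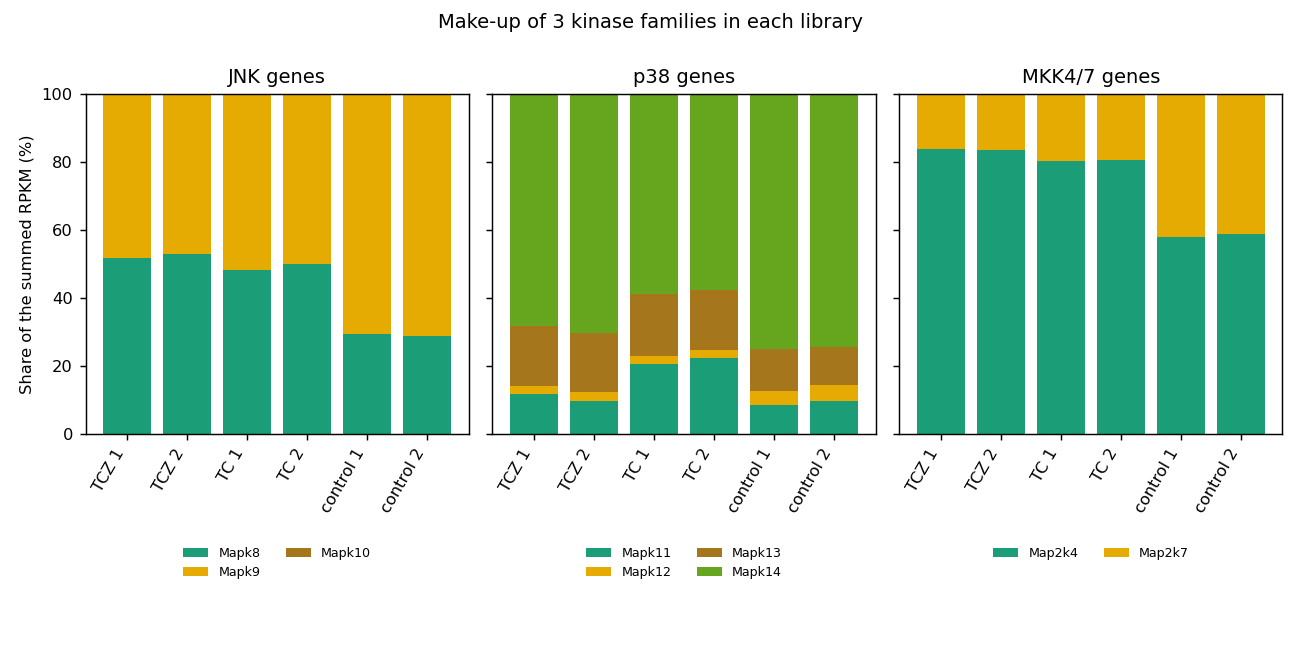
Share (%) of the summed TMM-scaled RPKM of each family held by each of its genes, in each library, for the JNK, p38 and MKK4/7 genes. Mapk8 holds 48.1% to 52.8% of the JNK level in treated libraries and 28.8% to 29.3% in control.

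In the p38 branch, Mapk14 (p38 alpha, the widely expressed form) fell and Mapk11 (p38 beta) rose in TC. Mapk14 had 15.0 and 14.5 RPKM in TCZ, 20.3 and 20.4 RPKM in TC, and 27.0 and 24.997 RPKM in control. The 3 groups did not overlap, with TCZ lowest. By edgeR, log2 fold changes came to -0.46 ± 0.07 in TCZ against TC (adjusted p = 1.51e-05), -0.82 ± 0.07 in TCZ against control (adjusted p = 2.68e-09) and -0.35 ± 0.07 in TC against control (adjusted p = 0.000202). Mapk11 had 2.56 and 1.98 RPKM in TCZ, 7.01 and 7.92 RPKM in TC, and 3.03 and 3.23 RPKM in control. Both TC libraries lay above the other 4. On the log2 scale the difference was -1.69 ± 0.13 in TCZ against TC (adjusted p = 4.19e-10) and 1.26 ± 0.13 in TC against control (adjusted p = 1.27e-08). In TCZ against control it was -0.43 ± 0.14 (adjusted p = 0.0109), and this call was lost without control replicate 2 (adjusted p = 0.0609) and without TCZ replicate 2 (adjusted p = 0.121).

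Mapk12 (p38 gamma, best known from skeletal muscle) had 0.541 and 0.564 RPKM in TCZ, 0.807 and 0.781 RPKM in TC, and 1.48 and 1.58 RPKM in control. Control lay above all treated libraries. Fitted log2 fold changes were -1.47 ± 0.25 in TCZ against control (adjusted p = 2.41e-05) and -0.94 ± 0.23 in TC against control (adjusted p = 0.00127), and -0.53 ± 0.25 in TCZ against TC did not pass (adjusted p = 0.0799). The muscle markers (2 of 5 tested) summed to 105 to 111 RPKM in TCZ, 90.3 to 92.6 RPKM in TC and 115 to 125 RPKM in control. Acta1 made up most of that sum, and in TC against control it fell (-0.58 on the log2 scale) while Des rose (0.55). Their part in the Mapk12 values was not tested. Mapk13 (p38 delta) rose in TC by 0.63 ± 0.14 against control and had -0.76 ± 0.15 in TCZ against TC. Epithelial markers (7 of 8 tested) summed to 9.50 to 12.4 RPKM in TCZ, 53.4 to 58.1 in TC and 11.8 to 13.7 in control. Krt19 made up most of each sum. In TC against control 6 rose and 1 did not pass. In TCZ against control Epcam and Grhl2 rose, Krt18 fell (-0.87 on the log2 scale) and 4 did not pass. Epcam had few counts, at 35 and 11 in TCZ, 14 and 14 in TC, and 1 and 1 in control. The part of these markers in the Mapk13 values was not tested. The summed p38 level was 22.0 and 20.6 RPKM in TCZ, 34.4 and 35.5 RPKM in TC, and 36.0 and 33.5 RPKM in control.

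In the ERK branch, Mapk3 (ERK1) fell in TC. Mapk3 had 45.4 and 40.9 RPKM in TCZ, 31.3 and 33.7 RPKM in TC, and 50.4 and 48.0 RPKM in control. The TC libraries lay below the other 4. Log2 fold changes were 0.41 ± 0.08 in TCZ against TC (adjusted p = 0.000103) and -0.60 ± 0.08 in TC against control (adjusted p = 5.41e-07). In TCZ against control it was -0.19 ± 0.08 (adjusted p = 0.0387), a call lost without control replicate 1, either TC library or TCZ replicate 2 (adjusted p 0.0645 to 0.328), and with DESeq2 (adjusted p = 0.0727).

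Mapk7 (ERK5, the target of MEK5) fell in TCZ. It had 2.42 and 2.19 RPKM in TCZ, 8.94 and 9.81 RPKM in TC, and 7.86 and 8.60 RPKM in control. Both TCZ libraries lay below the other 4. By edgeR, log2 fold changes came to -2.01 ± 0.10 in TCZ against TC (adjusted p = 3.2e-13) and -1.82 ± 0.10 in TCZ against control (adjusted p = 8.04e-13), and 0.19 ± 0.09 in TC against control did not pass (adjusted p = 0.0705).

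Of the atypical kinases, Mapk6 (ERK3) rose in TCZ, by 0.70 ± 0.07 against TC and 0.85 ± 0.07 against control, and its 0.16 ± 0.07 in TC against control did not pass (adjusted p = 0.0574) but passed in 6 of 14 alternatives, DESeq2 among them (adjusted p = 0.00526). Mapk4 (ERK4) was much lower in level, with 0.133 and 0.175 RPKM in TCZ, 0.558 and 0.611 RPKM in TC, and 0.171 and 0.330 RPKM in control. The TC libraries lay above the other 4. On the log2 scale the difference was -1.96 ± 0.35 in TCZ against TC (adjusted p = 5.85e-05) and 1.26 ± 0.33 in TC against control (adjusted p = 0.00196), the last 0.83 and not passing without control replicate 1 (adjusted p = 0.0647). In TCZ against control -0.69 ± 0.37 did not pass (adjusted p = 0.113), and without control replicate 1 it was -1.14 and passed (adjusted p = 0.0206). A noncoding gene, D730045A05Rik, lies within Mapk4 on the other strand over 2182 bases, with 1253 and 658 counts in TCZ, 1171 and 1182 counts in TC and 0 counts in both control libraries. Mapk4 itself had 35 and 23 counts in TCZ, 147 and 165 counts in TC, and 45 and 54 counts in control, so reads of the 2 genes may not be fully told apart.

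**Figure D4:**
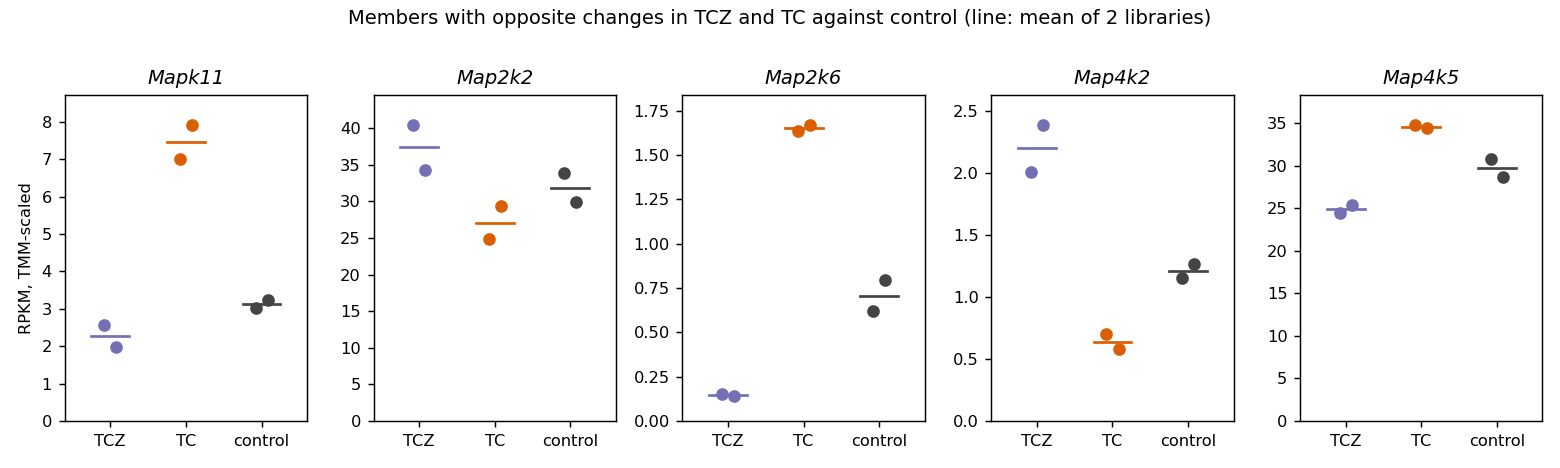
TMM-scaled RPKM of the 5 genes whose TCZ and TC changes against control both passed with opposite signs, in TCZ, TC and control; points are libraries and lines are means of 2. Map2k6 and Map4k2 kept both calls in every alternative run, while a call of Mapk11, Map2k2 and Map4k5 was lost in at least one.

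The genes around the cascade were taken from lists of related families, and values below are log2 fold changes that passed unless an adjusted p is given. The counts below stand beside 28.2% higher and 27.9% lower of all tested genes in TCZ against TC, 31.5% and 28.6% in TCZ against control, and 31.5% and 29.1% in TC against control, and nothing particular to a list was tested. All 6 RAS GTPases, the switches above RAF, were tested: 0 rose and 5 fell in TCZ against TC, 2 rose and 3 fell in TCZ against control, and 4 rose and 2 fell in TC against control. Nras had -1.17 ± 0.08 in TCZ against TC, -1.43 ± 0.08 in TCZ against control and -0.26 ± 0.08 in TC against control. Rras had -0.23 ± 0.07 in TCZ against TC, 0.99 ± 0.08 in TCZ against control and 1.22 ± 0.08 in TC against control. Of the RAF and MOS kinases 3 of 4 were tested, with Mos at 0 counts: 0 rose and 3 fell in TCZ against TC, 1 rose and 1 fell in TCZ against control, and 2 rose and 1 fell in TC against control. The 5 TAO and other Ste20-type kinases without a Map number act at the MAP3 and MAP4 levels. All 5 fell in TCZ against TC and in TCZ against control, and 1 rose and 3 fell in TC against control. Taok3 had -0.69 ± 0.09 in TCZ against TC, -1.99 ± 0.09 in TCZ against control and -1.30 ± 0.08 in TC against control. Taok2 had -0.61 ± 0.09 in TCZ against TC, -1.50 ± 0.09 in TCZ against control and -0.90 ± 0.08 in TC against control. Mink1 had -0.57 ± 0.08 in TCZ against TC, -1.05 ± 0.08 in TCZ against control and -0.48 ± 0.08 in TC against control.

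Scaffolds and adaptors hold the kinases of a cascade together. Of 16, 3 rose and 6 fell in TCZ against TC, 7 rose and 6 fell in TCZ against control, and 8 rose and 3 fell in TC against control. The JNK scaffold Mapk8ip3 had -1.17 ± 0.08 in TCZ against TC, 0.39 ± 0.08 in TCZ against control and 1.57 ± 0.08 in TC against control. Tab1, an adaptor of the kinase TAK1, had -1.72 ± 0.14 in TCZ against TC, -1.86 ± 0.14 in TCZ against control and -0.14 ± 0.12 in TC against control (not passing, adjusted p = 0.322). Mapkbp1 had 1.49 ± 0.09 in TCZ against TC, 0.77 ± 0.09 in TCZ against control and -0.72 ± 0.09 in TC against control. Scaffolds of the ERK branch also moved. Ksr1 had 0.58 ± 0.17 in TCZ against TC, -1.07 ± 0.16 in TCZ against control and -1.65 ± 0.16 in TC against control. Lamtor3, an endosomal partner of MEK1, had -0.05 ± 0.07 in TCZ against TC (not passing, adjusted p = 0.591), 1.20 ± 0.08 in TCZ against control and 1.25 ± 0.08 in TC against control. The arrestins can scaffold ERK and JNK. Arrb1 had -1.29 ± 0.13 in TCZ against TC, -1.05 ± 0.13 in TCZ against control and 0.24 ± 0.12 in TC against control (not passing, adjusted p = 0.0831). Arrb2 had 0.19 ± 0.30 in TCZ against TC (not passing, adjusted p = 0.604), -1.26 ± 0.29 in TCZ against control and -1.45 ± 0.28 in TC against control.

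Of 11 kinases that MAP kinases phosphorylate, 6 rose and 2 fell in TCZ against TC, 6 rose and 2 fell in TCZ against control, and 5 rose and 5 fell in TC against control. Rps6ka5 (MSK1, a kinase of histone H3 and CREB) had 0.57 ± 0.11 in TCZ against TC, 2.28 ± 0.12 in TCZ against control and 1.71 ± 0.12 in TC against control. Its relative Rps6ka4 (MSK2) had -0.06 ± 0.08 in TCZ against TC (not passing, adjusted p = 0.581), -1.43 ± 0.08 in TCZ against control and -1.38 ± 0.08 in TC against control. Mknk2, a kinase of the translation factor eIF4E, had 1.87 ± 0.08 in TCZ against TC, 1.51 ± 0.08 in TCZ against control and -0.36 ± 0.08 in TC against control. Mapkapk3, a p38 target, had -0.85 ± 0.08 in TCZ against TC, 0.36 ± 0.08 in TCZ against control and 1.22 ± 0.08 in TC against control. The ribosomal S6 kinases are targets of ERK. Rps6ka1 had 0.83 ± 0.21 in TCZ against TC, -0.46 ± 0.20 in TCZ against control (not passing, adjusted p = 0.0527) and -1.29 ± 0.21 in TC against control. Rps6ka2 had 0.90 ± 0.08 in TCZ against TC, -0.45 ± 0.08 in TCZ against control and -1.35 ± 0.08 in TC against control.

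Sprouty and SPRED proteins inhibit the ERK branch. Of 6, 1 rose and 5 fell in TCZ against TC, 3 rose and 3 fell in TCZ against control, and 5 rose and 1 fell in TC against control. Spry4 had -1.86 ± 0.08 in TCZ against TC, 0.28 ± 0.08 in TCZ against control and 2.14 ± 0.08 in TC against control. Spry1 had -1.11 ± 0.08 in TCZ against TC, -0.42 ± 0.08 in TCZ against control and 0.69 ± 0.07 in TC against control. Spry2, the member that rose in all comparisons, had 0.48 ± 0.07 in TCZ against TC, 1.26 ± 0.07 in TCZ against control and 0.78 ± 0.07 in TC against control. SPRED proteins act at the level of RAS and RAF. Spred2 had -1.45 ± 0.10 in TCZ against TC, -2.19 ± 0.10 in TCZ against control and -0.74 ± 0.09 in TC against control. Spred3 had -0.48 ± 0.08 in TCZ against TC, 0.75 ± 0.08 in TCZ against control and 1.23 ± 0.08 in TC against control.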

How the data were processed

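Poly(A)-selected RNA of 6 fibroblast libraries was sequenced on an Illumina platform, per the labels' protocols. The deposited table holds read counts per gene and RPKM values that the authors computed from them, on build mm10; HISAT2 2.1.0 and HTSeq are named in the submitters' processing notes. RPKM recomputed from the counts and lengths of the table differed from the deposited RPKM by at most 4.97e-07. Counts were tested with edgeR 4.0.16 (R 4.3.3): TMM scaling, filterByExpr with a minimum count of 10, a quasi-likelihood fit of the 3 groups on all 6 libraries (3 residual degrees of freedom) and Benjamini-Hochberg adjustment over 18563 genes, at a threshold of 0.05. Errors after ± are standard errors of the log2 fold change, and all levels printed are RPKM after TMM scaling.

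Full values are given for genes that averaged 1 CPM or more and passed with a log2 fold change of at least 1 in size, and for a set of widely known kinases; the other members shown with their values were chosen after these were seen. The values of 1 member and of some list genes are not reported here, though they are in the counts. The members and lists were chosen with earlier results of these data known. Alternatives were DESeq2 1.42.0, other scalings and count filters, fitting only the groups compared, a replicate block, and leaving out libraries. Data were also simulated with the spread that the fit itself had estimated, and with few genes changed, in TC alone. There the fit returned changes of the right sign and few false calls. It missed many changes in genes with a mean under 100 counts. After an early run fell short, the pass limit on recovery was kept for genes of 100 counts and over alone. In the real data most genes passed, so the few false calls in the simulation say little about scaling there. Of the 37 tested genes, 6 (Mapk4, Map3k5, Map3k9, Map3k13, Map3k19 and Map4k1) lie under 100 counts, so a missing call for them says little.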

Additional observations from a re-analysis of the deposited data

Results flagged for a closer look

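5 genes passed in both TCZ against control and TC against control with opposite signs, by edgeR's quasi-likelihood test. Both comparisons use the same control libraries. The 5 genes were picked by a rule that also asked for a pass in TCZ against TC, so that pass adds no support. The share of all tested genes that meet this rule was not counted, so the 5 cannot be called many or few. Of all tested genes, 60.1% passed in TCZ against control and 60.7% in TC against control. The log2 fold change of TCZ against TC was -3.48 for Map2k6, 1.78 for Map4k2, -1.69 for Mapk11, -0.47 for Map4k5 and 0.47 for Map2k2. The calls of Map2k6 and Map4k2 were kept in all 14 alternatives run, including leaving out each library. Mapk11 lost its TCZ against control call without control replicate 2, without TCZ replicate 2 and without both, Map4k5 lost its TC against control call in several alternatives, and Map2k2 lost both calls against control in several alternatives.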

How the results depend on the processing

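Of 111 fold changes (37 genes in 3 comparisons), 88 passed, 73 of these passed in all 14 alternatives that gave a value, and 15 lost their call in at least one. Of the 23 that did not pass, 11 passed in at least one. The counts of genes passing stayed within 1.5 times in every alternative: 10 to 12 higher and 16 to 19 lower in TCZ against TC, 10 to 13 and 15 to 19 in TCZ against control, and 13 to 17 and 11 to 16 in TC against control. The counts of all tested genes passing also stayed within 1.5 times, so this steadiness is not particular to the kinase genes. Scaling by library totals alone shifted the median gene by -0.06 in TCZ against TC, -0.20 in TCZ against control and -0.14 in TC against control. Under it 5 values changed sign. They were Map2k1 at -0.19 (adjusted p = 0.00563), Map3k2 at -0.0021 (adjusted p = 0.981) and Map3k13 at -0.07 in TCZ against control, Map4k3 at -0.06 in TC against control and Map3k3 at -0.0035 in TCZ against TC. Map3k2 alone of these had passed. The other alternatives gave 8 sign changes, all in TCZ against control.

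The labels number the libraries 1 and 2 in each group. Deviations of same-numbered libraries correlated at -0.0407 between TCZ and TC, 0.22 between TCZ and control and 0.00607 between TC and control. The numbers were thus not taken as pairs. The 0.22 is between the groups whose replicate 2 libraries were the shallowest. Those 2 libraries also had 1 to 3 counts of Rnu1a1, and a technical difference shared by them was not tested. They were not alike in Rn7s1, with 4 counts in TCZ replicate 2 and 1338 in control replicate 2. With the replicate block, 12 rose and 18 fell in TCZ against TC, 13 and 17 in TCZ against control, and 16 and 14 in TC against control; it added the calls of Mapk6 in TC against control (adjusted p = 0.038) and Map3k13 in TCZ against TC (adjusted p = 0.0388). With 2 libraries a group, a lone library is assumed to vary like the other groups when its partner is left out.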
